A study of Rattus norvegicus with 10 samples.

Results

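The 9 genes described here encode the enzymes that make the sugar donor UDP-GlcNAc and those that add and remove O-GlcNAc on proteins. They were chosen by symbol (Gfpt1, Gfpt2, Gnpnat1, Pgm3, Uap1, Nagk, Gnpda1, Ogt and Oga), and all 9 were found among the 18025 genes of the deposited table. Their mRNA was compared between fetal rat hearts at embryonic day 19.5 from control (CON) and hyperglycemic (HG) pregnancies, with 5 libraries per group. The dams were wild-type Sprague-Dawley rats aged 3 months. HG dams received streptozotocin, a compound toxic to pancreatic β-cells, in citric acid buffer daily on consecutive days after mating, while CON dams received the buffer alone, and diabetes meant a non-fasting blood glucose above 16 mM at 7 days after injection. The labels do not say which fetuses or litters stand behind a library, and the methods speak of pooled RNA, so that p-values measure only the spread between these libraries, which may be technical.

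The hexosamine pathway branches off glycolysis at fructose 6-phosphate and uses glutamine, acetyl-CoA and UTP to build UDP-GlcNAc. OGT transfers GlcNAc from this donor to serines and threonines of nuclear, cytosolic and mitochondrial proteins, and OGA takes it off again. In the heart, the modification is known to reach contractile and calcium-handling proteins and to follow the supply of glucose. The question here was how the transcripts of this machinery stood in hearts exposed to maternal hyperglycemia. Transcript levels say nothing of enzyme activity, and in whole hearts fewer cells of a type cannot be told apart from less mRNA per cell.

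Of the 9 genes, 5 passed the test. Gfpt1, Pgm3, Ogt and Oga rose in HG hearts, Uap1 fell, and Gfpt2, Gnpnat1, Nagk and Gnpda1 did not pass. The values are FPKM, compared with limma on log2(FPKM + 0.1), and a gene was called at a Benjamini-Hochberg adjusted p under 0.05 over all 14542 genes tested. By this rule 40.1% of all genes tested were called, 28.4% higher and 11.8% lower in HG, so that calls were common throughout the table. The members called were 3 in number without CON replicate 1, CON replicate 2 or HG replicate 5, and 4 without CON replicate 3, the library with liver transcripts described below. No member reached a fold change of 2 in either direction, the threshold used in the study, which 1.94% of all genes passed together with the adjusted p. That count of 0 was the same with limma on FPKM and with voom on recovered reads, and 5 members had an unadjusted p under 0.05 with either tool. The median log2 fold change was 0.02 over the members and 0.09 over all genes tested. After median-of-ratios scaling of the libraries, the median of all genes tested was 0.01, and of 4 members called, 2 were higher (Gfpt1 and Oga) and 2 lower (Uap1 and Gnpda1). Quantile normalization called 2 higher and 2 lower as well. Over the whole table, 70.7% of called genes were higher in HG as deposited, 47.1% with median-of-ratios factors, and 53.0% with quantile-normalized values.

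Reads on genes, recovered from the steps between FPKM values, ranged from 17639895 to 18240006 per CON library and from 16672876 to 19109844 per HG library (two-sided exact permutation test, n = 5 per group, p = 0.770). Cardiomyocyte markers were abundant in every library, with a summed level of 25533 to 26637 FPKM in CON and 20194 to 23214 FPKM in HG, and 7 of 8 fell. All 6 markers of dividing cells rose, from a summed 258.3 to 291.2 FPKM in CON to 365.5 to 407.0 FPKM in HG. CON replicate 3 stood apart in liver genes such as Alb and Afp, at a summed 77.5 FPKM against 3.15 to 7.88 FPKM in the other CON libraries. Every HG library was below every CON library in this sum, at 1.33 to 2.60 FPKM, and 4 of 5 tested liver markers fell. The Y chromosome gene Kdm5d had 641 to 900 reads in 2 libraries of each group and 0 or 1 read in the other 6 libraries. The part of these shifts in the results below was not tested beyond the values without a library that are given there.

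Per length, Ogt was the most abundant transcript of the pathway and Gfpt2 the scarcest. In CON hearts the order of mean FPKM was Ogt, Oga, Uap1, Gfpt1, Gnpda1, Nagk, Gnpnat1, Pgm3 and Gfpt2. Neighbours in this order were separated in every CON library, except that the ranges of Uap1 and Gfpt1 and those of Gnpda1 and Nagk overlapped. In HG hearts Gfpt1 stood above Uap1, and the ranges overlapped for Uap1 with Gnpda1, Gnpda1 with Nagk and Gnpnat1 with Pgm3. Ogt lay at the 88th percentile of all genes tested by mean FPKM, and Gfpt2 at percentile 32.4. Between 135 reads (the lowest library of Gfpt2) and 5037 reads (the highest of Ogt) stood behind a value.

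**Figure D1:**
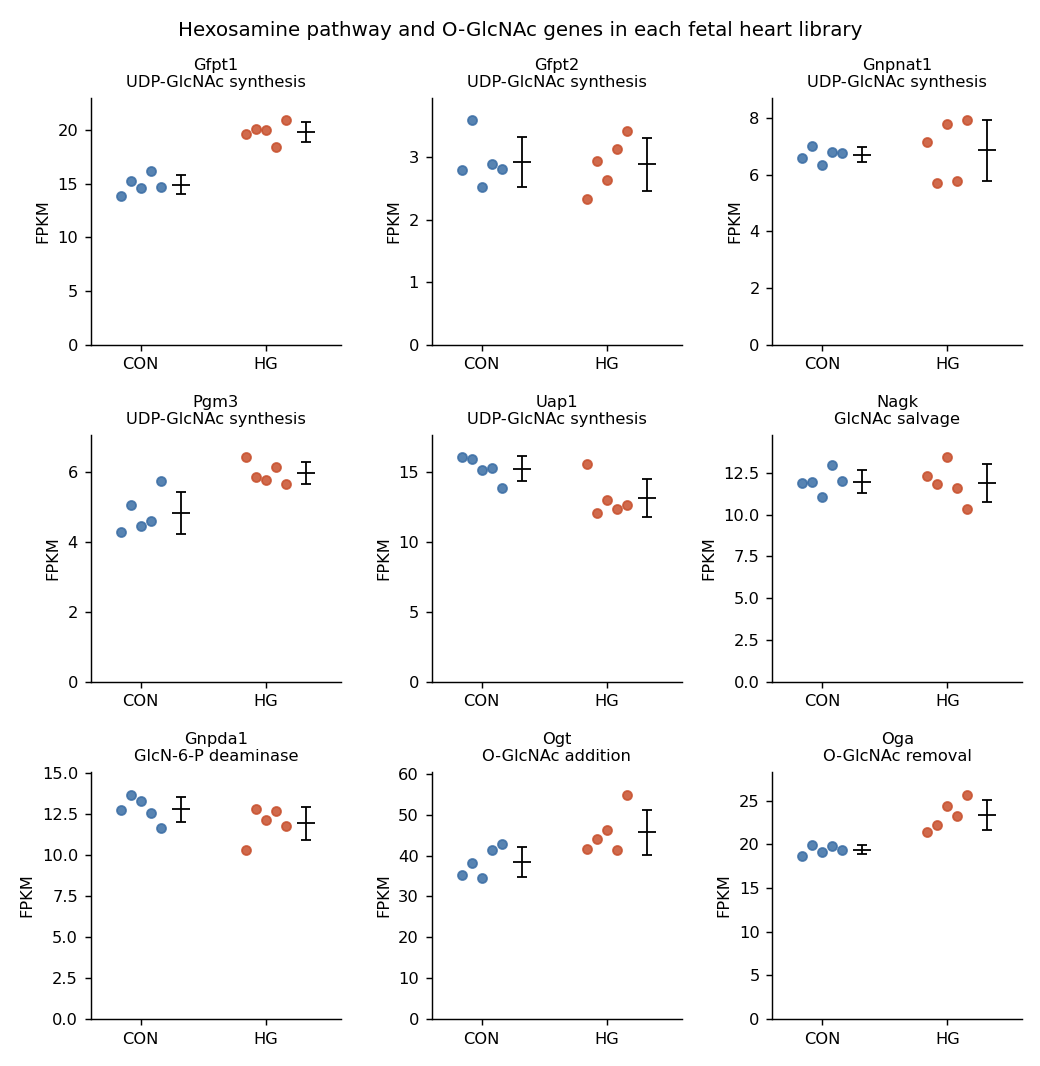
FPKM (y axis, from 0) of each gene in the 5 CON (blue) and 5 HG (orange) libraries, drawn from replicate 1 at the left to replicate 5 at the right of each group, with the group mean and SD in black. In Gfpt1 and Oga every HG library lies above every CON library, while in the other 7 genes the groups overlap.

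The pathway opens with GFAT, the rate-limiting amidotransferase that passes nitrogen from glutamine to fructose 6-phosphate, and 2 genes encode it. Gfpt1 is the form of most tissues. It was at 13.8, 15.2, 14.6, 16.2 and 14.7 FPKM in the CON libraries and at 19.6, 20.1, 20.0, 18.4 and 20.9 FPKM in the HG libraries. Every HG library was above every CON library, a separation in this direction that 19.3% of all genes tested showed. Gfpt1 (NCBI Gene 297417) thus rose from 14.9 ± 0.884 to 19.8 ± 0.921 FPKM (means ± SD of 5; 0.41 on the log2 scale, SE 0.0504, limma adjusted p = 7.83e-05), or by 32.7% on the fitted scale. It was called under every alternative run, with a log2 fold change between 0.32 and 0.44.

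Gfpt2, the other form, was at 2.80, 3.59, 2.52, 2.89 and 2.81 FPKM in CON and at 2.32, 2.94, 2.64, 3.13 and 3.41 FPKM in HG. The groups overlapped over nearly their whole range, with means of 2.92 ± 0.399 and 2.89 ± 0.424 FPKM (SD of 5). Its log2 fold change was -0.018, with a 95% interval from -0.27 to 0.23 (NCBI Gene 360518, adjusted p = 0.916), so that a change of the size of that in Gfpt1 lay outside the interval. Gfpt1 exceeded Gfpt2 by 4.24 to 5.79 times in CON libraries and by 5.88 to 8.45 times in HG libraries, without overlap. The log2 of this ratio was 0.43 higher in HG (standard error 0.125, two-sided exact permutation test, p = 0.00794, the smallest that 5 against 5 allow, adjusted p = 0.0119 over 3 ratios). A ratio within a library does not depend on the factor that scales this library, and the ratios were not run on quantile-normalized values.

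For 2 of the called genes, RefSeq's promoter window (GRCr8) reached far enough before the annotated gene to be shown. They are the gene with the largest change and the one that encodes the transferase. Capitals mark a GC box, spelled GGGCGG, the box of letters CCAAT that nuclear factor Y is known to bind, and a core found in elements of the unfolded protein response, spelled CCACG. Each was searched on either strand.
Gfpt1, chr4:121053839-121054022, plus strand: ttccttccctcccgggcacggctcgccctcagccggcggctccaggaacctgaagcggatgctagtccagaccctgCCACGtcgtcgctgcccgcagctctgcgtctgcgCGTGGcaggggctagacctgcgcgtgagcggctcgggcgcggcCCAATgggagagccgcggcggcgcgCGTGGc
Ogt, chrX:70811085-70811316, plus strand: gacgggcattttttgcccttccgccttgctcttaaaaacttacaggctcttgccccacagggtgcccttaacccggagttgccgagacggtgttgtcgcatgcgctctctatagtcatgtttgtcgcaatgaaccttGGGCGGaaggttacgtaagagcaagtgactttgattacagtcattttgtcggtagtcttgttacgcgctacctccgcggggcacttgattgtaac
The Gfpt1 stretch holds 3 CCACG cores and 1 CCAAT box and is 73.9% G and C. Over the same 184 bases of all 33469 windows, 20.3% held at least 1 CCACG core and 26.6% at least 1 CCAAT box. Windows with 3 cores were not counted, and windows were not matched for G and C. The Ogt stretch, 51.3% G and C, holds 1 GC box, and 28.6% of windows held at least 1 over the same 232 bases. RefSeq holds 2 promoter windows for Ogt, and only the window with the lower start position is shown. The motifs do not overlap each other here, and a match describes letters and not binding.

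After GFAT, GNPNAT1 adds an acetyl group, PGM3 moves the phosphate, and UAP1 joins the sugar to UTP. These consecutive steps did not share a direction. Gnpnat1 was at 6.59, 7.03, 6.36, 6.81 and 6.77 FPKM in CON and at 7.16, 5.69, 7.78, 5.76 and 7.92 FPKM in HG. The CON libraries lay close together, while 3 HG libraries were above all of them and 2 below all of them. Its means were thus near each other, at 6.71 ± 0.253 and 6.86 ± 1.07 FPKM (means ± SD of 5; NCBI Gene 498486, difference of 0.018 on the log2 scale, 95% interval -0.19 to 0.22, limma adjusted p = 0.898).

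Pgm3 was at 4.28, 5.05, 4.47, 4.60 and 5.76 FPKM in CON and at 6.42, 5.86, 5.78, 6.16 and 5.66 FPKM in HG. Of the HG libraries 4 were above all CON libraries, and the overlap came from CON replicate 5 and HG replicate 5. Pgm3 (NCBI Gene 363109) rose from 4.83 ± 0.593 to 5.98 ± 0.309 FPKM (means ± SD of 5; 0.31 on the log2 scale, SE 0.0803, limma adjusted p = 0.00921). The call was lost with median-of-ratios factors (0.22, adjusted p = 0.0566) and with quantile normalization (0.21, adjusted p = 0.0615), and it held without each library in turn.

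Uap1, the last step, went the other way. It was at 16.0, 15.9, 15.1, 15.2 and 13.8 FPKM in CON and at 15.5, 12.1, 13.0, 12.4 and 12.6 FPKM in HG. All HG libraries but replicate 1 were below all CON libraries. Uap1 (NCBI Gene 498272) fell from 15.2 ± 0.886 to 13.1 ± 1.38 FPKM (means ± SD of 5; -0.22 on the log2 scale, SE 0.0689, limma adjusted p = 0.0250). The adjusted p lay between 0.0513 and 0.0588 without CON replicate 1, CON replicate 2, HG replicate 2, HG replicate 4 or HG replicate 5. It was 0.00568 with median-of-ratios factors, where the log2 fold change was -0.31, and 0.00215 without HG replicate 1.

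Since Gfpt1 rose and Uap1 fell, the balance of the opening and closing steps was looked at after the values were seen, as a description with no test. Gfpt1 was above Uap1 in 2 of 5 CON libraries and in 5 of 5 HG libraries. The ratio ran from 0.865 to 1.07 in CON and from 1.27 to 1.67 in HG. The 5 synthesis genes together summed to 43.0 to 46.8 FPKM in CON and to 45.8 to 51.0 FPKM in HG.

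Nagk phosphorylates GlcNAc that is released when glycoconjugates are broken down, and so returns it to the pathway. It was at 11.9, 11.9, 11.1, 13.0 and 12.0 FPKM in CON and at 12.3, 11.9, 13.4, 11.6 and 10.3 FPKM in HG. Both the highest and the lowest library belonged to HG, and the means of 12.0 ± 0.686 and 11.9 ± 1.12 FPKM (SD of 5) differed by less than the spread (NCBI Gene 297393, log2 fold change -0.013, 95% interval -0.16 to 0.13, adjusted p = 0.900 from limma).

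Gnpda1 encodes a deaminase that turns glucosamine 6-phosphate back into fructose 6-phosphate. It was at 12.8, 13.7, 13.3, 12.6 and 11.6 FPKM in CON and at 10.3, 12.8, 12.2, 12.7 and 11.8 FPKM in HG. The groups overlapped, at 12.8 ± 0.773 and 11.9 ± 1.01 FPKM (means ± SD of 5), with HG replicate 1 below all others. The log2 fold change was -0.10 (NCBI Gene 683570, 95% interval -0.24 to 0.04, adjusted p = 0.249), and it passed the threshold with median-of-ratios factors (-0.19, adjusted p = 0.0448) and with quantile normalization (-0.18, adjusted p = 0.0484). Gfpt1 exceeded Gnpda1 by 1.09 to 1.29 times in CON and by 1.45 to 1.91 times in HG, so that this ratio of the forward to the reverse enzyme did not overlap between groups. Its log2 was 0.51 higher in HG (standard error 0.0870, two-sided exact permutation test, p = 0.00794, adjusted p = 0.0119).

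Ogt encodes the enzyme that places O-GlcNAc on nuclear, cytosolic and mitochondrial proteins. It was at 35.3, 38.1, 34.5, 41.2 and 42.8 FPKM in CON and at 41.7, 43.9, 46.3, 41.4 and 54.9 FPKM in HG. The ranges overlapped, 3 HG libraries were above all CON libraries, and HG replicate 5 was the highest of the 10. Ogt (NCBI Gene 26295) rose from 38.4 ± 3.63 to 45.6 ± 5.55 FPKM (means ± SD of 5), by 0.25 on the log2 scale with a 95% interval from 0.07 to 0.42 (SE 0.0822, limma adjusted p = 0.0310). The call was near the threshold, with an adjusted p between 0.0522 and 0.0758 without CON replicate 1, 2 or 3 or without HG replicate 3 or 5. It was 0.136 with median-of-ratios factors, 0.0890 after quantile normalization and 0.0576 without a trend on expression. The gene lies on the X chromosome, and with Y chromosome genes as a covariate the log2 fold change was the same (0.25, adjusted p = 0.0370), while among the 3 CON and 3 HG libraries with under 10 Kdm5d reads it was 0.27 (adjusted p = 0.134).

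Oga, which encodes the enzyme that removes O-GlcNAc, was at 18.7, 19.9, 19.1, 19.9 and 19.3 FPKM in CON and at 21.4, 22.3, 24.4, 23.3 and 25.7 FPKM in HG. No HG library reached down to the CON range, which was narrow. Oga (NCBI Gene 154968) rose from 19.4 ± 0.522 to 23.4 ± 1.71 FPKM (means ± SD of 5), by 0.27 on the log2 scale with a 95% interval from 0.16 to 0.38 (SE 0.0505, limma adjusted p = 0.00129). It was called under every alternative run, with log2 fold changes between 0.18 and 0.30. Gfpt1 and Oga were the 2 members whose groups did not overlap, both with HG above. Of all genes tested, 19.3% showed a separation in this direction. No member had every HG library below every CON library, which 8.12% of all genes tested did.

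The log2 fold changes of Ogt and Oga were 0.25 and 0.27. Their ratio did not pass the test, which cannot show that the 2 changes were equal. The ratio of Ogt to Oga was 1.89, 1.91, 1.81, 2.08 and 2.22 in the CON libraries and 1.95, 1.97, 1.90, 1.78 and 2.14 in the HG libraries. Of the HG values 4 lay inside the CON range. The log2 of the ratio differed by -0.023 between groups (standard error 0.0684, two-sided exact permutation test, p = 0.746, adjusted p = 0.746), and its sign changed without CON replicate 5 and without HG replicate 4.

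**Figure D2:**
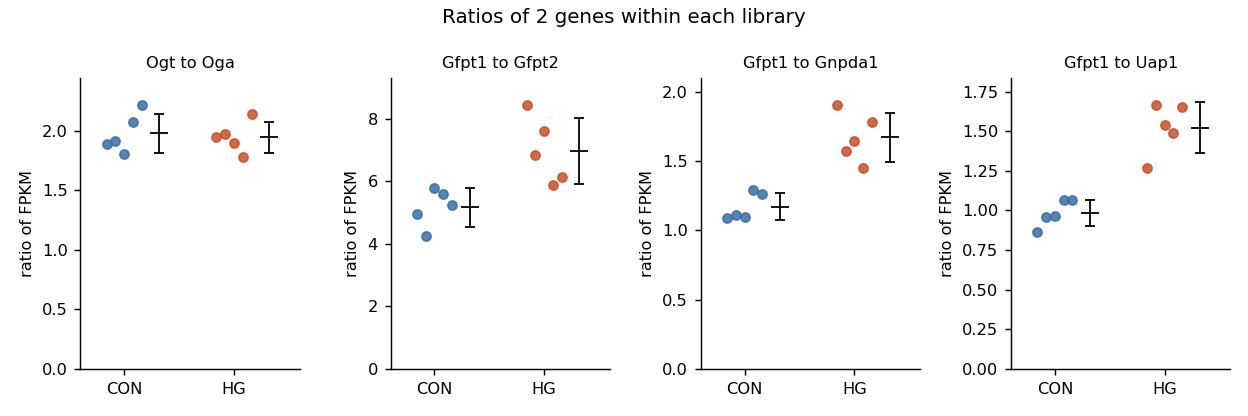
Ratio of the FPKM of 2 genes within each library (y axes, from 0, no unit) in CON (blue) and HG (orange), with group mean and SD in black. Ogt to Oga overlaps between groups, while the ratios of Gfpt1 to Gfpt2, to Gnpda1 and to Uap1 do not, the last of these chosen after its values were seen.

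**Figure D3:**
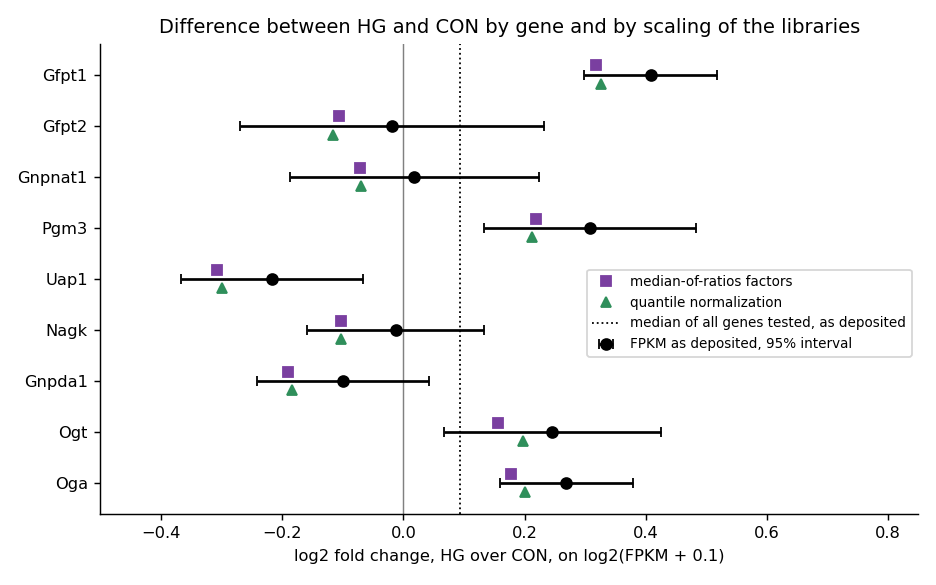
Log2 fold change of HG over CON (x axis) for the 9 genes, with 95% intervals for FPKM as deposited (black), and the estimates after scaling by median-of-ratios (squares) or by quantiles (triangles). Both scalings shift every gene to the left, Gnpnat1 changes sign under them, and Gfpt1, Pgm3, Ogt and Oga stay right of 0 and Uap1 left of it.

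The genes around the pathway were taken from 5 lists. Of their 77 tested genes 40 were called, 28 higher and 12 lower in HG. Over all 14542 genes tested, 40.1% were called, 28.4% higher and 11.8% lower. With median-of-ratios factors 14 of the 77 were higher and 18 lower, beside 2271 and 2551 of all genes tested. With quantile-normalized values 17 of the 77 were higher and 16 lower, beside 2615 and 2317 of all genes tested. The median log2 fold change of the 77 was 0.13, beside 0.09 over all genes tested. Among the 9 genes of glucose entry and of the branch point, 3 rose and 3 fell (1 and 3 with median-of-ratios factors, 3 and 2 with quantile-normalized values). The neuronal-type glucose transporter gene Slc2a3 rose from 3.62 ± 0.372 to 5.54 ± 0.497 FPKM (means ± SD of 5; 0.60 on the log2 scale, limma adjusted p = 0.000206). The insulin-responsive transporter gene Slc2a4 fell from 19.1 ± 1.29 to 14.3 ± 1.20 FPKM (-0.41, adjusted p = 0.000372). Slc2a1, the most abundant transporter gene of the list, was named here after its values were seen. It was at 128.9 to 133.3 FPKM in CON and, with overlap, 128.6 to 199.9 FPKM in HG. Its call (0.28, adjusted p = 0.0451) was lost with median-of-ratios factors. The muscle phosphofructokinase gene Pfkm, whose enzyme competes with GFAT for fructose 6-phosphate, fell from 109.3 ± 4.26 to 86.4 ± 4.02 FPKM (-0.34, adjusted p = 6.33e-05). Pfkl, the liver form of that enzyme, named here after its values were seen, rose from 96.6 to 103.7 FPKM over the CON libraries to 101.9 to 120.7 FPKM over the HG libraries (0.16, adjusted p = 0.0152), a call lost with median-of-ratios factors (0.067, adjusted p = 0.318). Gpi, which makes that substrate, fell by 0.11 (adjusted p = 0.0204), a call lost after quantile normalization (adjusted p = 0.200).

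Most of the called genes that supply the other substrates were higher. Of 13 tested genes of glutamine, acetyl-CoA and UTP supply, 8 rose and 1 fell (5 and 3 with median-of-ratios factors, 6 and 1 with quantile-normalized values). The ATP citrate lyase gene Acly, a source of acetyl-CoA, rose from 32.4 ± 1.87 to 43.2 ± 1.57 FPKM (means ± SD of 5; 0.42 on the log2 scale, limma adjusted p = 2.83e-05). The pyrimidine synthesis gene Dhodh rose by 0.28 (adjusted p = 0.00211). Acss2, which makes acetyl-CoA from acetate, was the 1 that fell, from 7.87 ± 0.552 to 5.97 ± 0.329 FPKM (-0.39, adjusted p = 0.000481).

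Of the 14 other amino sugar enzymes, 5 rose and 3 fell, and with either other scaling only 1 was higher. Gne, which opens the path from UDP-GlcNAc to sialic acid, fell from 8.42 ± 0.709 to 6.50 ± 0.614 FPKM (means ± SD of 5; -0.37 on the log2 scale, limma adjusted p = 0.00218). Cmas, which activates sialic acid, rose by 0.15 (adjusted p = 0.00603), a call lost with median-of-ratios factors (adjusted p = 0.263) and with quantile-normalized values (adjusted p = 0.0561). Of 24 tested users and transporters of UDP-GlcNAc, 6 rose and 1 fell (2 and 3 with median-of-ratios factors, 1 and 4 with quantile-normalized values). The O-glycan branching gene Gcnt1 fell from 6.99 ± 0.458 to 4.61 ± 0.444 FPKM (-0.59, adjusted p = 8.12e-05). Extl2, of heparan sulfate synthesis, rose by 0.49 (adjusted p = 0.000605), and the N-glycan branching gene Mgat4a by 0.27 (adjusted p = 0.00351, and 0.0610 after quantile normalization). B3gnt2, which extends lactosamine chains, rose by 0.20 (adjusted p = 0.0207), a call lost without CON replicate 4 (adjusted p = 0.0506) and with both other scalings (adjusted p = 0.169 and 0.251).

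Of 17 partners and regulators of OGT, OGA and GFAT, 6 rose and 4 fell. The endoplasmic reticulum chaperone gene Hspa5 fell from 519.0 ± 46.5 to 286.8 ± 31.5 FPKM (means ± SD of 5; -0.86 on the log2 scale, limma adjusted p = 9.76e-06). Xbp1, a transcription factor of the unfolded protein response known to act on hexosamine genes, fell from 69.5 ± 6.40 to 48.3 ± 2.76 FPKM (-0.52, adjusted p = 7.59e-05). Atf4, the transcription factor of the amino acid response, rose from 97.9 ± 1.59 to 120.3 ± 3.57 FPKM (0.30, adjusted p = 2.33e-05). Prkaa1, a catalytic subunit of AMPK, which phosphorylates GFAT, rose by 0.38 (adjusted p = 7.90e-05).

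**Figure D4:**
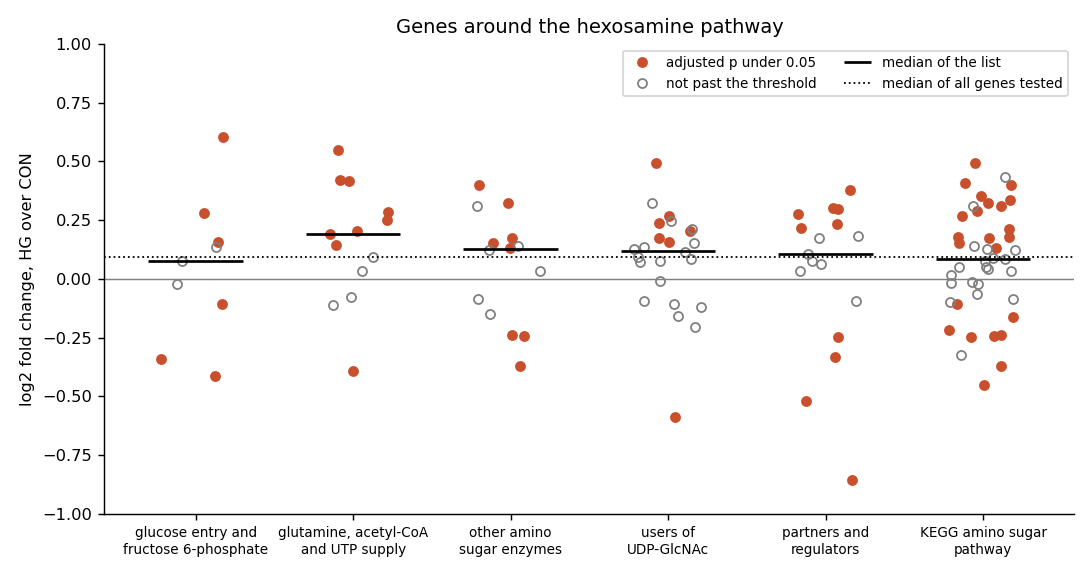
Log2 fold change of HG over CON (y axis) for tested genes of the 5 lists and of the KEGG pathway, as filled points past an adjusted p of 0.05 and open points otherwise, with the median of each list (bar) and of all genes tested (dotted line). Every list holds called genes on both sides of 0, and the lowest point is Hspa5 at -0.86.

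The table's own annotation gave a broader view. It assigned 48 genes to the KEGG pathway of amino sugar and nucleotide sugar metabolism, 7 of them members, and 43 passed the filter on low values. Of the 36 tested genes that were not members, 13 rose and 7 fell, with a median log2 fold change of 0.11. Over all genes tested, 28.4% were called higher and 11.8% lower. For all 43, 15 rose and 8 fell, but 4 rose and 10 fell with median-of-ratios factors, while quantile-normalized values gave 5 and 10. Of those that were not members, the smallest adjusted p belonged to Pgm1, Galk1 and Galt. Pgm1, which links glycogen to glucose 6-phosphate, fell from 130.4 ± 8.84 to 95.4 ± 7.43 FPKM (means ± SD of 5; -0.45 on the log2 scale, limma adjusted p = 0.000123). Galk1 rose by 0.49 and Galt by 0.29 (adjusted p = 0.000153 and 0.000964), and both encode enzymes of galactose use.

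Across the 10 libraries, the genes most like Ogt in log2(FPKM + 0.1) among the 11709 whose mean reached 1 FPKM were Dhrs1 (Pearson r = 0.977), Pnisr (0.974) and Idua (0.974). Those most like Oga were Usp9x (0.994), Dixdc1 (0.984) and Hnrnph3 (0.978). The libraries fall into the 2 groups, and all genes of a library share its depth and scaling, so that these values describe likeness of pattern alone. Idua was not called (adjusted p = 0.0534). Ogt was 0.25 and Oga 0.27 higher in HG, and the log2 fold changes of the 6 genes ran from 0.21 (Usp9x) to 0.38 (Dixdc1).

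Among markers of other cells, 2 of 8 fibroblast genes rose and 4 fell, at a summed 1724 to 2010 FPKM in CON and 1556 to 1785 FPKM in HG. Endothelial markers stood at 254.8 to 277.8 FPKM in CON and 263.6 to 287.5 FPKM in HG, with 2 of 7 higher. Of 7 smooth muscle and pericyte markers 2 rose and 2 fell, at 722.0 to 834.1 FPKM in CON and 877.4 to 1118 FPKM in HG. Of 7 epicardial markers 2 rose and 1 fell (32.1 to 37.8 FPKM in CON, 38.2 to 44.6 FPKM in HG), and of 7 macrophage markers 3 rose and 1 fell (28.8 to 35.9 FPKM in CON, 33.1 to 43.7 FPKM in HG). Hemoglobin genes took 3.27 ± 0.873% of all FPKM in CON and 2.24 ± 0.264% in HG (SD of 5). Red cell markers stood at 110.1 to 171.5 FPKM in CON and 216.3 to 532.8 FPKM in HG, with the embryonic globins Hbz and Hbe1 higher and 5 of 8 lower. Nerve and glia markers stayed between 4.70 and 6.88 FPKM in both groups, with the glial gene Sox10 under the filter. The part of these cells in the changes of Gfpt1, Pgm3, Uap1, Ogt and Oga was not tested.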

How the data were processed

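Messenger RNA of 10 fetal hearts' libraries (5 CON, 5 HG) was analysed from the table of FPKM that the authors deposited, in which read numbers had been divided by gene length and library size. The submitters' processing notes name fastp, HISAT2, HTSeq, R 3.2.0 and the build mRatBN7.2 without their roles. All per-sample columns were used (0 unused). Whole reads were recovered from the steps between FPKM values for 100% of genes (within 0.02 of 1 read).

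The 14542 genes whose mean reached 0.1 FPKM were fitted on the log2(FPKM + 0.1) scale in limma 3.58.1 (trend, no covariate) in R 4.3.3, with Benjamini-Hochberg adjustment over them all. The study's DESeq takes counts and was not used. Such fold changes understate those of low genes. The model was tested on simulated data. For ratios within libraries, an exact permutation test (two-sided, scipy 1.17.1) was run. Python 3.11.15, numpy 2.4.6, pandas 2.3.3 and matplotlib 3.10.9 were used.

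The members and lists were chosen with earlier results of these data known. Named genes were the members, up to 4 called genes per list without overlap of groups, 3 of the KEGG pathway, and the 3 genes most like Ogt and like Oga, of which 1 is not reported here. Alternatives were pseudocounts of 1 and 0.01, no filter or a mean of 1 FPKM, 2 other scalings, hemoglobin genes left out (symbols starting Hba, Hbb, Hbe, Hbg, Hbq or Hbz, without the growth factor gene Hbegf), no trend, array weights, the replicate block, a Y chromosome covariate, voom on recovered reads, and each library left out. With the data already seen, a comparison of the libraries with under 10 Kdm5d reads was chosen as well. RefSeq (GRCr8) matched 9 of 9 members by identifier and held promoter windows for 7, shown for called genes where at least 100 bases precede the gene. In that assembly 4 members (Ogt, Gfpt2, Gnpnat1 and Uap1) overlap another gene, and the strand setting of the counting is not given in the sources used here.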

Additional observations from a re-analysis of the deposited data

Results flagged for a closer look

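In 5 libraries of a group, 1 library was taken as far from the rest when its gap to the nearest exceeded 0.71 of the group's range (Dixon's test at 95%), which chance alone gives in about 1 of 20 groups. Of 66 groups examined, 6 were of this kind, 1 of them in a member. Uap1 was at 15.5 FPKM in HG replicate 1 against 12.1 to 13.0 FPKM in the other HG libraries. Acss2 was at 6.90 FPKM in CON replicate 4 (others 7.98 to 8.28 FPKM). Gcnt1 was at 5.38 FPKM in HG replicate 5 (others 4.26 to 4.53 FPKM). Prkaa1 was at 9.73 FPKM in CON replicate 3 (others 8.82 to 8.98 FPKM) and at 12.6 FPKM in HG replicate 3 (others 11.5 to 11.7 FPKM). Galt was at 36.4 FPKM in CON replicate 2 (others 41.6 to 43.6 FPKM). The causes were not tested.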

How the results depend on the processing

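Gfpt1 and Oga kept their direction and their call in all 23 alternatives each. The number of members called, 5 in the comparison as reported, ranged from 3 to 5 when each library was left out in turn (3 without CON replicate 1, CON replicate 2 or HG replicate 5) and was 3 among libraries with under 10 Kdm5d reads. In that smaller comparison of 3 against 3, 2718 genes differed over the whole table in place of 5836, 18 in place of 40 in the lists, and Ogt (0.27, adjusted p = 0.134) and Pgm3 (0.21, adjusted p = 0.198) lost the call. Ogt also lost it with median-of-ratios factors (0.16), after quantile normalization (0.20) and with no trend (0.25), and Pgm3 with both scalings (0.22 and 0.21), while Gnpda1 gained it (-0.19 and -0.18). Leaving out each library gave Ogt 0.18 to 0.29, Uap1 -0.28 to -0.19, Gfpt2 -0.0797 to 0.0562, Gnpnat1 -0.0366 to 0.0809, Nagk -0.0567 to 0.0372 and the log2 ratio of Ogt to Oga -0.0576 to 0.0186. The uncalled genes changed sign elsewhere too, Gnpnat1 to -0.0715 (median-of-ratios), -0.0698 (quantile) and -0.0721 (libraries with under 10 Kdm5d reads), Gfpt2 to 0.10 among those libraries, and Nagk to 0.020 with array weights. The cause was not tested. Leaving out a library left the whole-table count between 5059 and 5620. Of 483 values of the 21 other genes chosen by the naming rule, 470 kept direction and call and 13 lost the call.

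Replicate numbers are shared by the groups, but same-numbered libraries did not deviate together (r between -0.13 and 0.11, and 1 of 10 libraries was closest to its own number). With the replicate block, 5096 genes and the 5 members were called, and the adjusted p of the ratios of Gfpt1 to Gfpt2 (0.43) and to Gnpda1 (0.51) was 0.0938, where a sign-flip permutation test allows no p below 0.0625. Depth limits Gfpt2 most, with 135 to 199 reads per library.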
